A study of Homo sapiens with 6 samples.

Results

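Integrins are the cell surface receptors that tie a cell to the proteins of its matrix, and 43 genes of this system were followed: 17 alpha chains, 8 beta chains and 18 cytoplasmic linkers. The genes were taken as a list of symbols, not by their values, and each symbol was found on 1 of the 62700 rows of the gene table. The RNA came from A673, an established Ewing sarcoma cell line in which the fusion oncoprotein EWS-FLI1 acts as an aberrant ETS transcription factor. There were 3 libraries of the parental control, with genotype EWS-FLI1 wildtype, and 3 of EWS-FLI1 knockout cells, all grown in the same serum-containing medium. The sources used here do not say how the knockout was made, whether it is 1 clone or a pool, or whether replicates were separate cultures. A difference between clones and the loss of the fusion therefore cannot be told apart, and p-values measure no more than how far these libraries vary, possibly for technical reasons alone. The stated interest of the series was alternative splicing, but the table holds 1 value per gene and no isoforms.

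An integrin is a heterodimer of 1 alpha and 1 beta chain, and a chain reaches the cell surface only with a partner. The alpha chain largely sets the ligand: collagens, laminins, or proteins with the Arg-Gly-Asp (RGD) motif such as fibronectin. Inside the cell, talins and kindlins bind the beta tail and switch the receptor on, ILK, PINCH and parvin form a complex that joins the tail to actin, focal adhesion kinase, p130Cas and paxillin pass on signals, and vinculin, zyxin and tensins hold the actin filaments. Ewing sarcoma cells are known for growing with weak adhesion to matrix.

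Libraries held between 301605666 and 342624492 estimated counts, all parental libraries above all knockout ones. Levels are given as TMM-scaled CPM, the counts of a gene relative to its library size, on which 3 counts correspond to between 0.00752 and 0.0117 CPM, and changes as log2 fold changes, positive where the knockout was higher, whose standard errors (SE) come from an edgeR quasi-likelihood fit. The 12 genes listed as Ewing sarcoma identity markers all fell, from a summed level of 1793 to 1827 CPM in parental to between 282 and 293 CPM in knockout libraries. PRKCB, LIPI, XG and NR0B1 had the largest log2 fold changes of that list, at -6.83, -6.77, -6.72 and -6.41, while CD99, NKX2-2 and BCL11B changed by -1.83, -2.67 and -6.15. EWSR1 and FLI1, the genes joined in the fusion, were called lower and higher: EWSR1 went from 293 ± 6.2 to 245 ± 6.21 CPM (-0.26, edgeR adjusted p = 3.81e-05) and FLI1 from 40.7 ± 1.15 to 53.1 ± 2.11 CPM (0.38, edgeR adjusted p = 4.27e-07; SD, n = 3). Gene counts add reads of the fusion to those of both genes, so they do not check its loss. The direction for FLI1 rests on the scaling: its TMM-scaled level was higher in knockout libraries. Its mean count before scaling was lower there, at 13975 against 15694 in parental libraries. Scaling by total counts alone moved the median of all genes by -0.42 on the log2 scale, so small changes depend on the scaling.

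Most of the integrin system was higher in the knockout libraries. In bulk RNA, a change in the number of cells that express a gene and a change in RNA per cell cannot be told apart. All 43 genes passed the filter on low counts, 31 rose, 7 fell and 5 did not pass an edgeR adjusted p of 0.05, over all 28485 genes tested. Among all genes tested 36.3% rose and 37.5% fell, 73.8% in either direction. The median log2 fold change of the 43 genes was 1.93, against -0.06 for all genes tested. The log2 change exceeded 1 in 27 genes that rose and 5 that fell, where 21.8% and 20.3% of all genes rose and fell by as much. The libraries of the genotypes did not overlap in 41 of the 43 genes, against 76.7% of all genes tested. Of the alpha chains 10 rose and 3 fell, of the beta chains 7 rose and 1 fell, and of the linkers 14 rose and 3 fell. With total counts only, 12 of the 43 genes fell in place of 7, and 11 with upper quartile factors. Of all 28485 genes tested, 14949 and 12780 fell in these settings, in place of 10687.

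**Figure D1:**
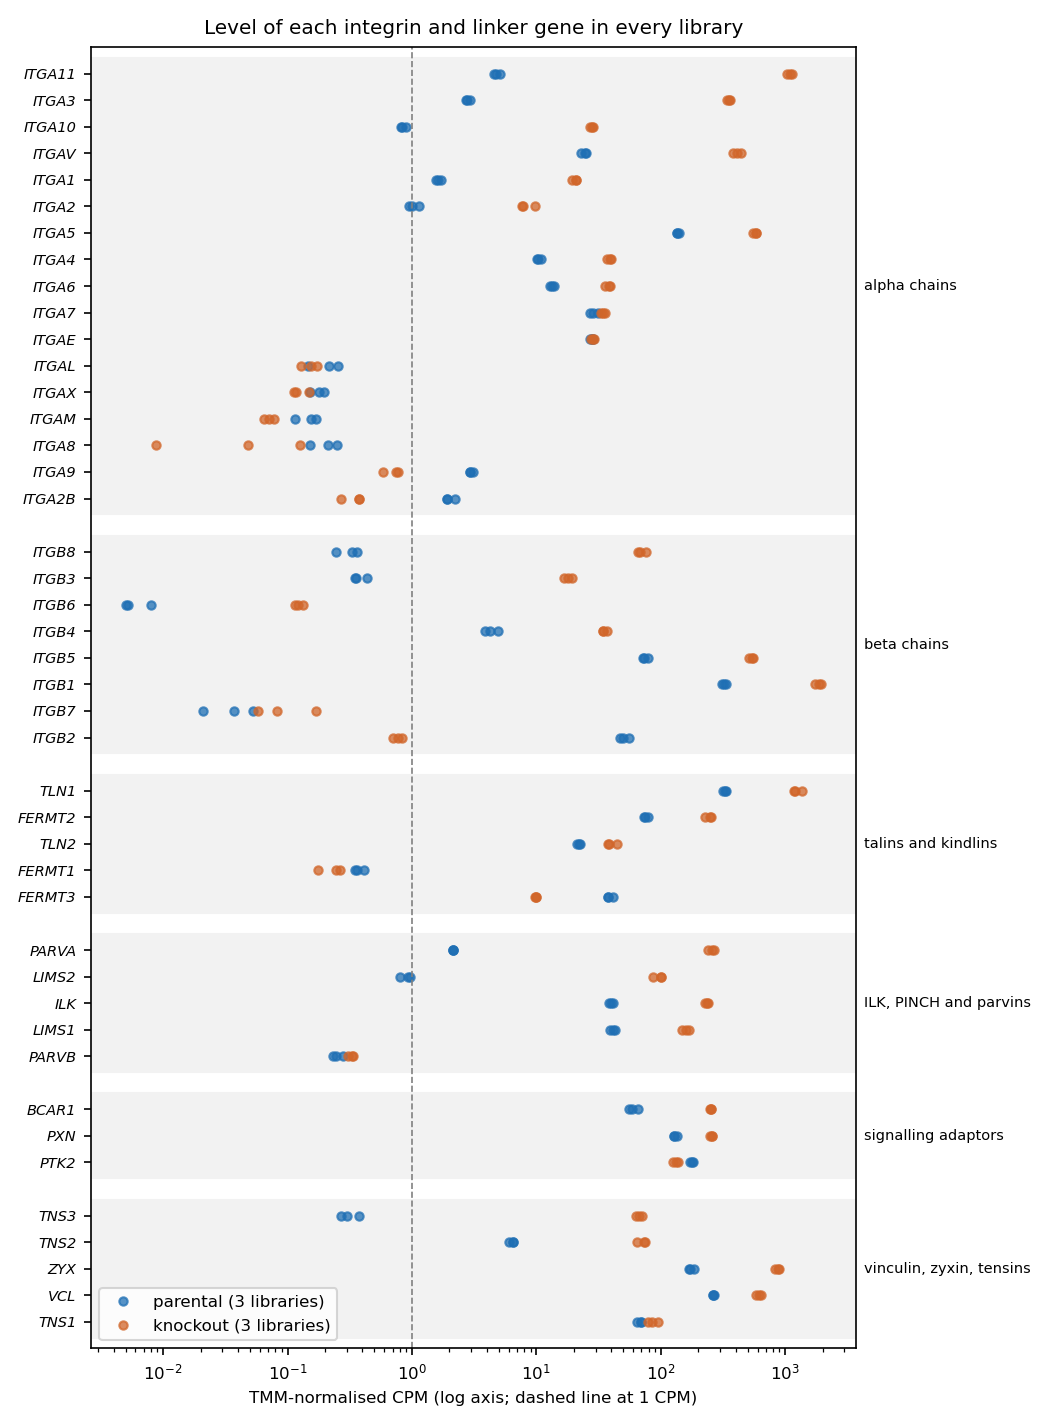
Level of each of the 43 genes in every library, as TMM-normalised CPM on a log axis, with 3 points per genotype and genes grouped by role. The widest gaps to the right are those of ITGA11, ITGB8 and TNS3, and the widest gap to the left is that of ITGB2.

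**Figure D2:**
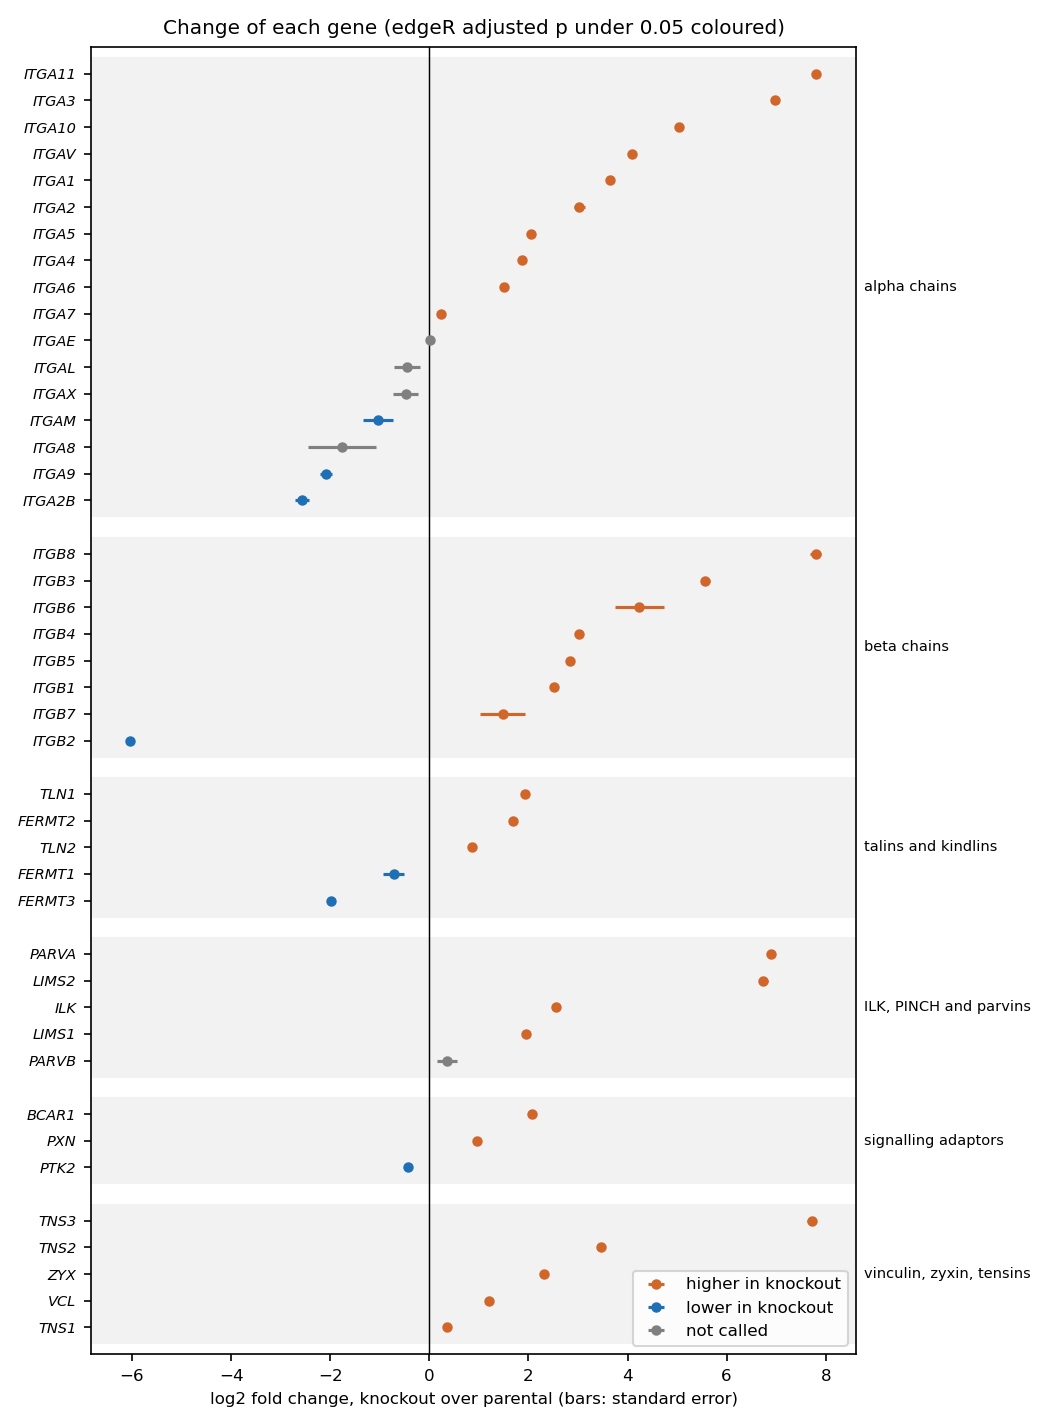
Log2 fold change of knockout over parental for each gene, with the standard error as a bar, coloured by direction where the edgeR adjusted p was under 0.05. Values ran from -6.04 for ITGB2 to 7.81 for ITGA11.

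The collagen receptors showed the largest rise of any alpha group. ITGA11, the alpha chain of a fibrillar collagen receptor of mesenchymal cells, lies on the minus strand of chromosome 15 from 68296533 to 68432162 (GRCh38). It measured 5.12, 4.76 and 4.57 CPM in parental RNA against 1131, 1091 and 1030 CPM in knockout RNA. Every knockout library was far above every parental one, by 225-fold on average (7.81 on the log2 scale, SE 0.071, edgeR adjusted p = 5.95e-27). Its parental level per total count was 0.596% of its knockout level. That is close to what the least expressed abundant genes keep: of 3251 genes that averaged 20000 counts or more in knockout libraries, the 20 with the lowest parental share kept a median of 0.537%. The share was taken from these same data, and ITGA11 was itself among the genes considered, so their closeness is no independent check. Subtracting the share can only lower the smaller level, so it enlarges a change by construction. With it subtracted, ITGA11 held 0.727, 0.452 and 0.259 CPM in parental libraries, with a log2 fold change of 11.15, so its parental level is uncertain.

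The other 3 collagen-binding alpha chains rose from low levels. ITGA10, a collagen receptor best known from cartilage, measured 0.815, 0.827 and 0.893 CPM in parental RNA against 27.1, 27.8 and 28.7 CPM in knockout RNA (log2 fold change 5.04, SE 0.07, edgeR adjusted p = 2.28e-24). ITGA1, which prefers basement membrane collagen, went from 1.56, 1.62 and 1.70 to 21.0, 20.7 and 19.3 CPM (3.64, SE 0.069). ITGA2, a collagen receptor of platelets and epithelia, went from 1.00, 1.14 and 0.946 to 9.73, 7.86 and 7.63 CPM (3.03, SE 0.11). In all 3 the genotypes were fully separated, as in 76.7% of all genes tested. ITGA1 and ITGA2 are neighbours on chromosome 5, from 52787896 to 52959210 and from 52989326 to 53094779.

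The laminin receptors moved unevenly. ITGA3, the alpha chain of a laminin receptor of basement membranes, measured 2.93, 2.76 and 2.73 CPM in parental RNA against 359, 356 and 341 CPM in knockout RNA. The groups lay 125-fold apart (log2 fold change 6.97, SE 0.063, edgeR adjusted p = 6.21e-27). After subtraction of the kept share the log2 fold change of ITGA3 was 7.98. Its parental level per total count was 1.07% of its knockout level, not far above the kept share of 0.537%, so that parental level is uncertain. ITGA6, which pairs with beta1 or with the hemidesmosomal beta4, went from 13.3, 13.0 and 13.8 to 39.1, 38.5 and 35.6 CPM (1.5, SE 0.055). ITGA7, the laminin receptor of muscle, measured 31.1, 27.2 and 28.8 CPM in parental RNA against 32.9, 34.3 and 35.7 CPM in knockout RNA. That small rise of ITGA7 (0.24, SE 0.056, edgeR adjusted p = 0.000547) became a fall with total counts only (-0.18, edgeR adjusted p = 0.0113) and did not pass with upper quartile factors (0.04, edgeR adjusted p = 0.545).

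Among the alpha chains of fibronectin and other RGD receptors, ITGA5 and ITGAV rose, ITGA2B fell and ITGA8 did not pass. ITGA5, the alpha chain of the main fibronectin receptor, measured 140, 134 and 136 CPM in parental RNA against 579, 579 and 548 CPM in knockout RNA (log2 fold change 2.06, SE 0.049, edgeR adjusted p = 5.52e-20). ITGAV, which serves vitronectin and latent TGF-beta receptors, rose from 22.8, 24.9 and 24.6 to 438, 410 and 382 CPM (4.09, SE 0.062, edgeR adjusted p = 1.11e-23). Both genes separated the genotypes completely, as did 76.7% of all genes tested, and the change of ITGAV was the larger. ITGA8, a receptor of kidney and smooth muscle, stayed under 0.26 CPM in every library, with 0.210, 0.250 and 0.152 CPM in parental RNA against 0.126, 0.0484 and 0.00869 CPM in knockout RNA. Its value of -1.76 (SE 0.68, edgeR adjusted p = 0.0557) did not pass. It passed as lower with total counts only (-2.19, edgeR adjusted p = 0.0102), without knockout replicate 1 (-2.82, edgeR adjusted p = 1.15e-07) and without knockout replicate 3 (-1.20, edgeR adjusted p = 0.0147), among other settings. ITGA2B, the platelet fibrinogen receptor chain, fell from 2.24, 1.90 and 1.93 to 0.270, 0.374 and 0.378 CPM (-2.57, SE 0.15, edgeR adjusted p = 7.02e-13).

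Among the alpha chains best known from leukocytes, only ITGA4 rose. ITGA4, which binds VCAM-1 and fibronectin, went from 10.2, 10.3 and 10.9 to 40.2, 38.9 and 36.7 CPM (log2 fold change 1.88, SE 0.055). Its close relative ITGA9 fell from 3.10, 2.94 and 2.91 to 0.587, 0.745 and 0.773 CPM (-2.09, SE 0.12, edgeR adjusted p = 7.36e-13). ITGAE, the partner of beta7 on lymphocytes within epithelia, measured 28.2, 28.8 and 27.0 CPM in parental RNA against 28.4, 29 and 27.3 CPM in knockout RNA. The ranges of ITGAE overlapped and it did not pass (0.01, SE 0.051, edgeR adjusted p = 0.841), but it passed as lower with total counts only (-0.41, edgeR adjusted p = 1.50e-06) and with upper quartile factors (-0.19, edgeR adjusted p = 0.00118). ITGAL, ITGAM and ITGAX, the partners of beta2, stayed under 0.26 CPM in all libraries. ITGAM fell (-1.04, SE 0.30, edgeR adjusted p = 0.0041), and ITGAL and ITGAX had values of -0.45 and -0.48 that did not pass. These 2 passed as lower with total counts only (edgeR adjusted p = 0.00749 and 0.00475), and did so under upper quartile scaling (edgeR adjusted p = 0.0332 and 0.0225), and ITGAL also without parental replicate 3 (-0.63, edgeR adjusted p = 0.0463).

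ITGB1 dominated the beta chains of both genotypes. ITGB1, the common partner of most alpha chains, lies on chromosome 10 from 32900319 to 33005792 and measured 311, 335 and 325 CPM in parental RNA against 1952, 1880 and 1735 CPM in knockout RNA (log2 fold change 2.52, SE 0.055, edgeR adjusted p = 9.01e-21). ITGB5, a partner of alphaV on vitronectin, rose from 78.8, 72.2 and 73.8 to 552, 546 and 516 CPM (2.84, SE 0.054). ITGB4, the long-tailed chain of hemidesmosomes, rose from 4.89, 3.87 and 4.28 to 37.2, 34.4 and 34.1 CPM (3.02, SE 0.077). For all 3 chains the lowest knockout library was above the highest parental one. The genotypes did not overlap in 76.7% of all genes tested.

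The alphaV partners ITGB3 and ITGB8 rose from under 0.5 CPM. ITGB8, which presents latent TGF-beta for activation, measured 0.365, 0.330 and 0.247 CPM in parental RNA against 75.6, 68.2 and 66.2 CPM in knockout RNA (log2 fold change 7.80, SE 0.11, edgeR adjusted p = 1.1e-17). ITGB3, the beta chain of the vitronectin and platelet fibrinogen receptors, went from 0.347, 0.436 and 0.358 to 19.5, 18.0 and 16.6 CPM (5.57, SE 0.095). No library of one genotype reached the range of the other for either gene, as in 76.7% of all genes tested. The parental level of ITGB8 was 0.602% of its knockout level per total count, close to the kept share of 0.537%. After subtraction, which enlarges a rise by construction, its log2 fold change was 10.62. In the GENCODE annotation 51.6% of the exon bases of ITGB3 are shared with a readthrough gene on the same strand, so how its reads were divided is uncertain.

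ITGB6 and ITGB7 remained near the detection limit. ITGB6, an epithelial activator of latent TGF-beta, had 7 counts in the 3 parental and 97 in the 3 knockout libraries together, a ratio of levels of 20.3 with a 95% exact interval of 9.48 to 51.8 that covers counting error only. ITGB6 was called higher (log2 fold change 4.24, SE 0.49, edgeR adjusted p = 7.75e-08) but did not exceed 0.133 CPM. ITGB7, the partner of alpha4 and alphaE on lymphocytes, was called higher at 0.104 ± 0.0595 against 0.0370 ± 0.0159 CPM (SD, n = 3; 1.48, edgeR adjusted p = 0.0059). That call of ITGB7 was lost with total counts only (1.07, edgeR adjusted p = 0.0606), without parental replicate 1 (1.23, edgeR adjusted p = 0.0564) and without knockout replicate 3 (0.93, edgeR adjusted p = 0.11). Of the exon bases of ITGB7, 42.1% overlap ZNF740 on the opposite strand.

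ITGB2, the beta chain of the leukocyte integrins, was the 1 beta chain that fell. It lies on chromosome 21 from 44885953 to 44931989 and measured 55.9, 46.9 and 50 CPM in parental RNA against 0.839, 0.711 and 0.780 CPM in knockout RNA. The parental libraries were 65.7-fold higher (-6.04 on the log2 scale, SE 0.085, edgeR adjusted p = 1.97e-22). The value was -7.32 after subtraction of the 0.674% that the least expressed abundant parental genes kept in knockout libraries. Per total count the knockout level of ITGB2 was 1.14% of its parental level, not far above that share, so its knockout level is uncertain. Without a partner alpha chain beta2 is not displayed, and the known partners were near 0: per kilobase of longest coding transcript, ITGB2 was at 16 ± 1.43 and ITGAL, ITGAM and ITGAX together at 0.108 ± 0.00992 in parental libraries (SD, n = 3). ITGAD, the remaining alpha partner of beta2, was looked up after these values were seen and held 0.0807 ± 0.00466 CPM in parental libraries (SD, n = 3). ITGB2-AS1, an antisense gene that overlaps 4.46% of the exon bases of ITGB2 and was also singled out afterwards, went from 26.8 ± 1.24 to 0.303 ± 0.0138 CPM (SD, n = 3). The kit named in the labels is not stated to keep strand, so reads from the shared bases cannot be told apart.

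Markers of leukocytes, the cells in which beta2 is best known, were measured beside ITGB2. Of 14 such markers 10 stayed under 1 CPM in every library, and their summed level was 30.1 to 31.5 CPM in parental and 17.4 to 18.9 CPM in knockout libraries. PTPRC (CD45), which defines leukocytes, was at 0.127 ± 0.0273 CPM in parental and 1.5 ± 0.157 CPM in knockout libraries (SD, n = 3), and MS4A1 was at 0 in all 6. CSF1R and CD14, markers of monocytes and macrophages, were at 0.301 and 0.123 CPM in parental RNA against 0.725 and 0.264 CPM in knockout RNA. LCP1, an actin bundler of blood cells and many tumour lines, fell with ITGB2, from 17.4 ± 0.298 to 0.335 ± 0.0255 CPM, and CORO1A from 7.06 ± 0.528 to 2.99 ± 0.117 CPM, while the lysosomal CD68 rose from 5.08 ± 0.505 to 12.2 ± 0.823 CPM (SD, n = 3). Of the 9 tested 4 rose and 2 fell, where 36.3% of all genes tested rose and 37.5% fell. The part of such cells in the level of ITGB2 was not tested.

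Which of the 23 known alpha-beta pairs of these chains the transcripts would allow was then tabulated. A chain was taken as present in a genotype when all 3 of its libraries held at least 1 CPM, and a pair when both chains were. By this rule 11 pairs were present in parental and 14 in knockout libraries, with 10 in both and 8 in neither. Present in both were beta1 with alpha1, alpha3, alpha4, alpha5, alpha6, alpha7, alpha11 and alphaV, as well as alpha6-beta4 and alphaV-beta5. In knockout libraries alone the rule was met by alpha2-beta1, alpha10-beta1, alphaV-beta3 and alphaV-beta8, and in parental libraries alone by alpha9-beta1. No pair of beta2, beta6 or beta7 was present in either genotype, nor was the platelet pair of alphaIIb and beta3. ITGB3 missed the rule in parental libraries, at 0.380 ± 0.0488 CPM, and ITGA2B in knockout libraries, at 0.341 ± 0.0612 CPM (SD, n = 3). Per kilobase of longest coding transcript, the scarcer chain of that pair was at 0.0952 CPM in parental and 0.102 CPM in knockout libraries. Transcripts are not protein, and whether any pair was assembled was not measured here.

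The number of parental pairs depended on the threshold. At 5 CPM, or at 1 CPM per kilobase, 6 pairs remained in parental libraries, against 14 and 13 in knockout libraries, and no pair was then parental alone. At 0.5 CPM the counts were 13 and 15, with alphaV-beta3 and alphaV-beta8 alone limited to knockout libraries and no pair to parental ones. Alpha2-beta1, alpha9-beta1 and alpha10-beta1 were then present in both genotypes. At 0.1 CPM the counts were 20 and 19. There alphaV-beta6 was the only pair of knockout libraries alone, and alpha8-beta1 and alphaM-beta2 were those of parental libraries alone. The platelet pair of alphaIIb and beta3 was present in both genotypes at that threshold. Alpha11-beta1 was not present in parental libraries after subtraction of the kept share, which left 10 pairs there. Alpha2-beta1 missed the rule by parental replicate 3, where ITGA2 was at 0.946 CPM, and was present in parental cells without that library.

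The scarcer chain of a pair limits it, and levels per kilobase of longest coding transcript show which chain that was. For every beta1 pair the alpha chain was the scarcer one in all 6 libraries. Alpha5-beta1 had the highest limit in both genotypes, at 30.8 ± 0.779 CPM per kilobase (SD, n = 3) in parental RNA and 128 ± 3.98 in knockout RNA. With exon union lengths this order turned in knockout libraries, where ITGA11 took 34.7% of the summed alpha level and ITGA5 26.1%. Next among parental pairs was alpha7-beta1 at 7.05 ± 0.471, and next among knockout pairs was alpha11-beta1 at 106 ± 4.98, followed by alpha3-beta1 at 72.0 ± 1.99. AlphaV-beta5 went from 3.43 ± 0.158 to 58.3 ± 3.96, limited by ITGAV in both. AlphaV-beta8 went from 0.0359 ± 0.00694 to 8 ± 0.564 and alphaV-beta3 from 0.0952 ± 0.0122 to 4.52 ± 0.357, both limited by the beta chain. Alpha6-beta4 rose from 0.734 ± 0.0867 to 5.95 ± 0.288, limited by ITGB4, which in knockout libraries was close to ITGA6 at 6.72 ± 0.332 (SD, n = 3). These limits let each pair use a chain in full, although ITGAV is shared by 5 beta chains.

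**Figure D3:**
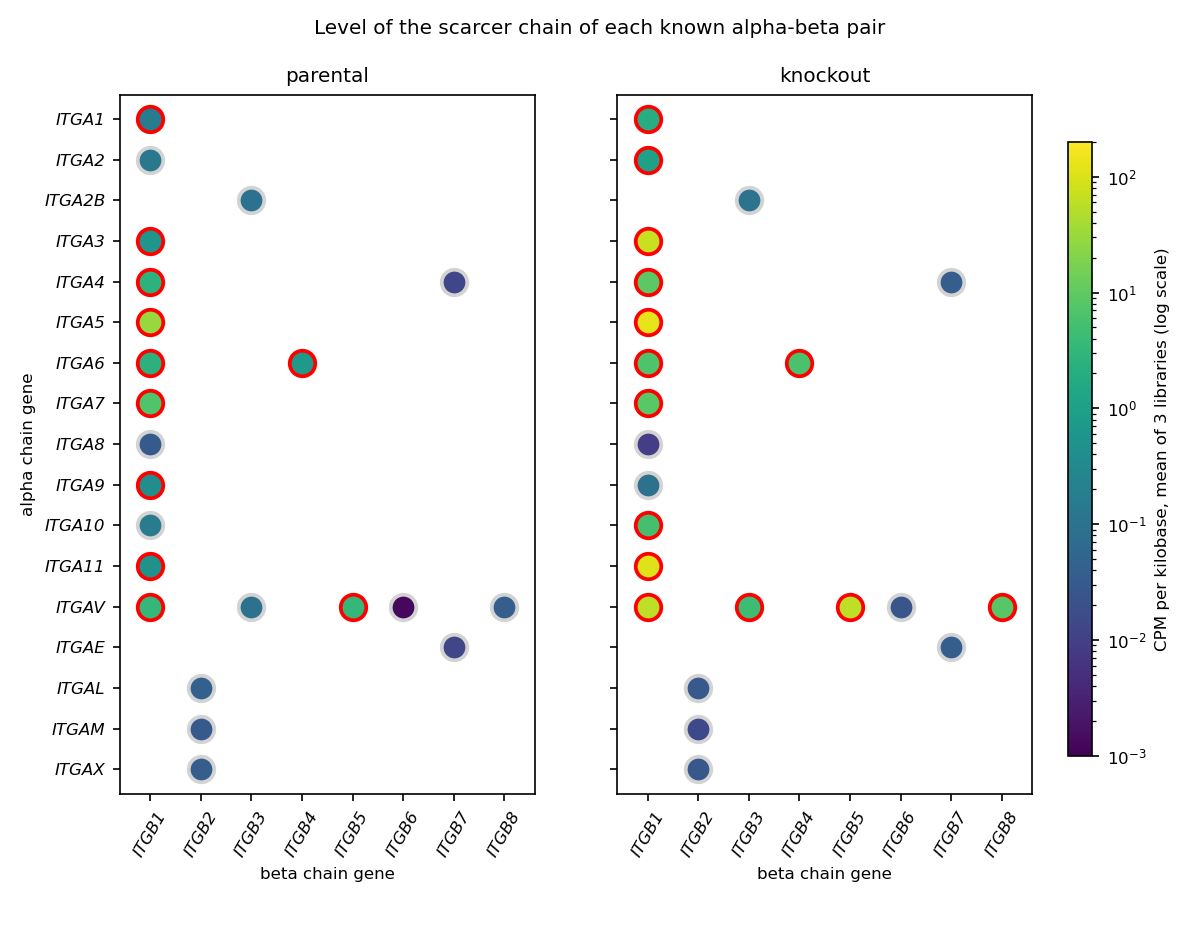
Level of the scarcer chain of each of the 23 known pairs in CPM per kilobase (colour, log scale, mean of 3 libraries), with alpha chains as rows and beta chains as columns. A red ring marks a pair whose 2 chains both held at least 1 CPM in all 3 libraries: 11 pairs in parental and 14 in knockout libraries.

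The surplus of beta1 over its alpha chains became smaller. Summed over the 12 alpha chains that pair with it, the level per kilobase was 0.598, 0.530 and 0.560 of that of ITGB1 in parental libraries. In knockout libraries it was 0.795, 0.807 and 0.830, above every parental library. ITGAV relative to the sum of ITGB3, ITGB5, ITGB6 and ITGB8 was 0.179, 0.212 and 0.206 in parental and 0.446, 0.425 and 0.419 in knockout libraries. Both ratios are taken within a library and do not depend on the scaling.

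The make-up of the alpha chains changed with the genotype. ITGA5 made up 54.9% ± 0.272 of the summed alpha level per kilobase in parental and 31.6% ± 0.354 in knockout libraries, although its own level rose. ITGA11 went from 0.843% ± 0.0361 to 26.3% ± 0.270 and ITGA3 from 1.02% ± 0.0225 to 17.8% ± 0.194. With exon union lengths, added after seeing the data, the order in knockout libraries turned, with ITGA11 at 34.7% ± 0.248 above ITGA5 at 26.1% ± 0.371. ITGAV took 6.13% ± 0.403 and 14.4% ± 0.467. ITGAE and ITGA7 together are the counterpart, at 13.0% ± 0.521 and 12.6% ± 0.584 in parental and 1.81% ± 0.0373 and 2.06% ± 0.162 in knockout libraries. The 4 collagen-binding chains as a group went from 1.63% ± 0.0326 to 28.3% ± 0.226 (all SD, n = 3). Among beta chains ITGB1 took 71.5% ± 2.12 and 77.6% ± 0.383, ITGB5 14.3% ± 0.756 and 19.5% ± 0.400, and ITGB2 13.4% ± 1.30 and 0.0387% ± 0.00333 (SD, n = 3).

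**Figure D4:**
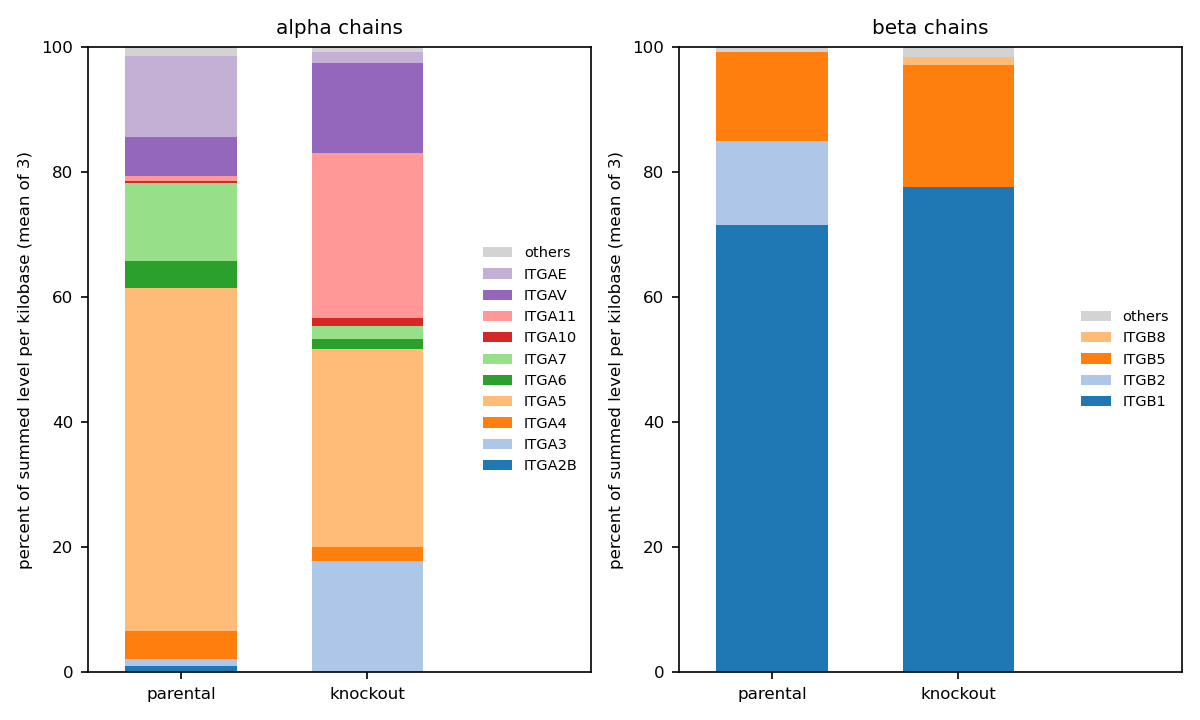
Share of each chain in the summed level per kilobase of all alpha chains (left) and all beta chains (right), in percent and as the mean of 3 libraries per genotype. Chains under 1% in both genotypes are pooled as others. ITGA5 goes from 54.9% to 31.6%, ITGA11 reaches 26.3%, and ITGB2 is visible in the parental bar alone.

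Of the 5 talins and kindlins, which activate integrins at the beta tail, 3 rose and 2 fell. Among all genes tested 36.3% rose and 37.5% fell. TLN1, the widely expressed talin, measured 332, 314 and 331 CPM in parental RNA against 1367, 1195 and 1173 CPM in knockout RNA (log2 fold change 1.93, SE 0.058, edgeR adjusted p = 1.24e-17). TLN2, the talin of muscle and brain, rose less, from 22.0, 21.2 and 22.6 to 44.5, 38.3 and 37.5 CPM (0.87, SE 0.062). FERMT2 (kindlin-2), the kindlin of mesenchymal cells, rose from 73.2, 78.3 and 74.5 to 252, 249 and 229 CPM (1.69, SE 0.052). FERMT3 (kindlin-3), the kindlin of blood cells and the usual partner of beta2 integrins, fell from 41.5, 37.7 and 37.8 to 9.86, 9.90 and 9.81 CPM (-1.98, SE 0.055, edgeR adjusted p = 9.56e-19). FERMT1 (kindlin-1), the epithelial form, was under 0.5 CPM throughout and fell (-0.72, SE 0.21, edgeR adjusted p = 0.00369). FERMT2 and FERMT3 thus moved in opposite directions, with no overlap between genotypes for either, as in 76.7% of all genes tested.

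The complex of ILK, PINCH and parvin rose in 4 of its 5 genes, where 36.3% of all genes tested rose. ILK, a pseudokinase that forms its centre, measured 41.4, 39.7 and 38.7 CPM in parental RNA against 236, 240 and 229 CPM in knockout RNA (log2 fold change 2.56, SE 0.051, edgeR adjusted p = 1.45e-21). Of the exon bases of ILK, 68.1% overlap TAF10 on the opposite strand. TAF10 was looked up for that reason and went from 26.8 ± 2.2 to 58.6 ± 1.77 CPM (SD, n = 3), and how reads were divided between these genes was not tested. PARVA, the parvin of most adherent cells, rose from 2.15, 2.12 and 2.13 to 268, 256 and 242 CPM (6.90, SE 0.065, edgeR adjusted p = 7.87e-27). PARVB, its relative in muscle, stayed between 0.233 and 0.337 CPM and did not pass (0.35, SE 0.20, edgeR adjusted p = 0.114), with a value of -0.07 with total counts only.

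The PINCH genes approached each other in level. LIMS1 (PINCH-1) rose from 39.4, 42.6 and 41.1 to 168, 159 and 148 CPM (log2 fold change 1.95, SE 0.055). LIMS2 (PINCH-2) rose from 0.930, 0.969 and 0.797 to 86.5, 100 and 101 CPM (6.74, SE 0.088, edgeR adjusted p = 1.26e-19). All knockout libraries were above all parental ones for both. In 76.7% of all genes tested the genotypes did not overlap. After subtraction of the kept share the log2 fold changes of PARVA and LIMS2 were 7.84 and 7.55. LIMS3 and LIMS4, near copies of LIMS1 that were looked up for that reason, held 1.21 and 1.39 CPM in parental RNA against 4.34 and 4.83 CPM in knockout RNA, so that reads could be divided among the copies.

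Among the signalling adaptors, focal adhesion kinase went against the rest. PTK2, which encodes that kinase, measured 172, 182 and 180 CPM in parental RNA against 138, 132 and 126 CPM in knockout RNA (log2 fold change -0.43, SE 0.049, edgeR adjusted p = 7.64e-08), and it was also lower with every other scaling tried. BCAR1 (p130Cas), a scaffold that the kinase phosphorylates, rose from 65.8, 55.4 and 58.3 to 250, 254 and 255 CPM (2.08, SE 0.058). PXN (paxillin), the adaptor that recruits both, rose from 135, 128 and 128 to 250, 258 and 258 CPM (0.97, SE 0.048, edgeR adjusted p = 2.95e-14). In each of the 3 genes the genotypes were separated, as in 76.7% of all genes tested.

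All 5 actin linkers rose, where 36.3% of all genes tested did, and 4 of them rose with total counts only. VCL (vinculin), which locks talin to actin under tension, went from 262, 264 and 267 to 638, 616 and 580 CPM (log2 fold change 1.21, SE 0.049). ZYX (zyxin), which repairs strained stress fibres, went from 185, 168 and 172 to 832, 898 and 878 CPM (2.31, SE 0.053, edgeR adjusted p = 2.67e-20). The tensins, which link beta tails to actin in mature fibrillar adhesions, differed most from each other. TNS3 rose from 0.379, 0.270 and 0.303 to 70.3, 66.8 and 63.2 CPM (7.72, SE 0.092, edgeR adjusted p = 2.42e-23) and TNS2 from 6.51, 6.08 and 6.50 to 64.9, 72.9 and 74.1 CPM (3.47, SE 0.062). TNS1 was at 69.5, 64.4 and 69.4 CPM in parental RNA against 94.7, 84.7 and 79.6 CPM in knockout RNA (0.35, SE 0.059, edgeR adjusted p = 2.78e-05), but at -0.08 with total counts only. The parental level of TNS3 was 0.637% of its knockout level per total count, and after subtraction of the kept share its log2 fold change was 10.37.

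Ratios of related genes within a library, which need no scaling between libraries, were compared for 7 preset combinations. In every one the genotypes did not overlap, but neither did they in 76.7% of all single genes tested, and no such share was computed for ratios. The exact two-sided permutation test gave p = 0.10 for each, which is the smallest value that 3 against 3 libraries allow. These values are not adjusted over the 7. Per kilobase, TNS1 exceeded TNS3 131-, 170- and 163-fold in parental libraries, and the ratio was 0.961, 0.904 and 0.899 in knockout libraries. LIMS1 exceeded LIMS2 23.7-, 24.6- and 28.9-fold in parental libraries, with ratios of 1.09, 0.888 and 0.819 in knockout libraries. How near to 1 the ratio of LIMS1 to LIMS2 lies depends on the length. Longest coding transcripts have 4461 and 2500 bases, and exon unions 7771 and 8487 bases. Without division by length, LIMS1 was at 158 ± 10 and LIMS2 at 95.8 ± 8.08 CPM in knockout libraries (SD, n = 3). The parental level of TNS3 is uncertain, since at 0.637% of its knockout level per total count it lay close to the kept share of 0.537%. Those of PARVA and LIMS2, at 1.12% and 1.26%, were not far above that share and are uncertain too. After subtraction of the share the log2 difference went from -7.38 to -10.93 for ratio TNS1/TNS3. It went from -4.79 to -5.59 for ratio LIMS1/LIMS2 and from 6.54 to 7.48 for ratio PARVA/PARVB. The ratio of PARVA to PARVB went from 5.76, 5.40 and 4.74 to 494, 524 and 457. TLN1 over TLN2 went from 20.3, 20 and 19.7 to 41.3, 42.0 and 42.1. ITGB3 remained the minor partner of alphaV, at 0.00482, 0.00662 and 0.00531 of ITGB5 in parental and 0.0387, 0.0361 and 0.0353 in knockout libraries. The smallest shift was that of ITGA5 over ITGA4, with a difference of 0.17 on the log2 scale, and FERMT1 over FERMT2 shifted by -2.43.

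**Figure D5:**
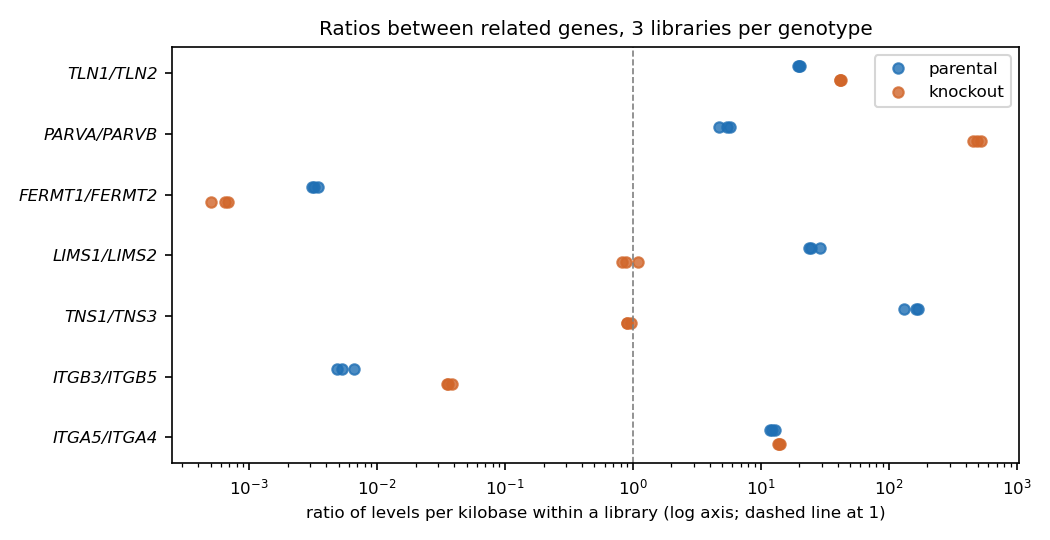
Ratio of the levels per kilobase of 7 pairs of related genes within each library, on a log axis with a dashed line at 1, 3 points per genotype. With lengths of the longest coding transcript, the knockout points of LIMS1/LIMS2 and TNS1/TNS3 lie around 1, while their parental points lie at 23.7 and above.

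The ligands of these receptors were described from lists of their own. Of 15 collagen genes of the kinds bound by alpha1, alpha2, alpha10 and alpha11, 13 rose and none fell (median log2 fold change 5.21). COL1A2, COL3A1, COL1A1 and COL6A3 changed most, by 7.96, 7.89, 7.57 and 6.51. Of 26 tested ligands among fibronectin, vitronectin and other RGD or related proteins 23 rose and 1 fell (median 2.87), led by POSTN (8.08), THBS1 (7.89), LTBP1 (7.13), which anchors latent TGF-beta, and CCN2 (7.06). Of 11 laminin chains 8 rose and 2 fell (median 1.36), with LAMA4, LAMA5, LAMB2 and LAMB1 at 6.92, 3.52, 2.68 and 2.58. Of 48 other proteins of adhesion complexes 38 rose and 7 fell (median 1.26). The actin-associated PDLIM1, SORBS2, NEXN and FHL2 led that list at 7.66, 7.25, 7.07 and 5.60. These medians stand beside -0.06 for all genes tested, and background rates of 36.3% risen and 37.5% fallen.

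Epithelial, platelet and endothelial markers were checked because several of these chains are best known there. Of 12 epithelial markers 9 stayed under 1 CPM in every library. The summed level of the list was 11.4 to 11.9 CPM in parental and 249 to 271 CPM in knockout libraries. In knockout libraries nearly all of it came from the keratins KRT18 (6.13 ± 0.297 to 229 ± 11.8 CPM) and KRT8 (0.777 ± 0.0852 to 31.8 ± 0.723 CPM; SD, n = 3). ESRP1, an epithelial splicing regulator, fell from 3.51 ± 0.265 to 0.0575 ± 0.0289 CPM. CLDN4 was at 0.413 and 0.635 CPM and ST14 at 0.0407 and 0.699 CPM in parental and knockout libraries. Of 12 platelet and endothelial markers 9 were under 1 CPM in every library and PF4 was at 0 in all, with summed levels of 47.5 to 52.1 CPM in parental and 36.1 to 39.6 CPM in knockout libraries. EMCN made up most of that sum and fell (-0.70), GP1BA, a platelet receptor chain, fell (-1.21) as ITGA2B did, ESAM fell (-0.77), and PECAM1 rose from 0.151 ± 0.0287 to 8.23 ± 0.433 CPM (SD, n = 3). What part such markers have in the values of ITGA2B, ITGB3 or ITGB4 was not tested.

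Promoter sequence was examined because so many of these genes moved together and because EWS-FLI1 binds GGAA. RefSeq windows of the 250 bases before a start site (GRCh38.p14) were found for 32 of the 43 genes, 58 windows in all. ITGAV and ITGB5 had several windows, of which the first listed was taken. Windows are printed for ITGA11, the gene with the largest rise, and for ITGAV and ITGB5, a pair present in both genotypes that rose together. Each is written 5′ to 3′ on the strand of the gene, with GGAA or its reverse complement TTCC in capitals.
ITGA11, chr15:68432164-68432413, minus strand: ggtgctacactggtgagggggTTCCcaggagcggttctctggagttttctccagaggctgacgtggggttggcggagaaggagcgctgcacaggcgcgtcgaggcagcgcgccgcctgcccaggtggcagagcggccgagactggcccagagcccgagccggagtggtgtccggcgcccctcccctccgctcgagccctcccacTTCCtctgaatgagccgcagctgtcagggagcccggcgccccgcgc
ITGAV, chr2:186589806-186590055, plus strand: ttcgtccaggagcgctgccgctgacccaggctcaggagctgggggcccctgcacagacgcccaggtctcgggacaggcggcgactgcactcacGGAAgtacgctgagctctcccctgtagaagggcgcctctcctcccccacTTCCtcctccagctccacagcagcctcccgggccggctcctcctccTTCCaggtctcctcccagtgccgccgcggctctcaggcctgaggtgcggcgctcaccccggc
ITGB5, chr3:124901419-124901668, minus strand: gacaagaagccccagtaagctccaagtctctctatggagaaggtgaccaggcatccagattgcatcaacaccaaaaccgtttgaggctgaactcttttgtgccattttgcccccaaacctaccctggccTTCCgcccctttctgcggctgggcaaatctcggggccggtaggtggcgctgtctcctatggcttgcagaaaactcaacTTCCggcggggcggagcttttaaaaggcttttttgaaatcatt

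The letters searched were about as frequent in these windows as in all 35116 windows. GGAA on either strand stood in 93.1% of the 58 windows and 92.7% of all windows, and its repeat GGAAGGAA, which contains it, in 3.45% and 3.06%. GGAATG, the core bound by TEAD factors and also containing GGAA, stood in 12.1% and 11.9%, among them windows of ITGA5, ITGA10, ITGB1, PXN, TNS1 and VCL. TGANTCA, an AP-1 core, stood in 5.17% and 6.57%, and the CArG box of SRF in 1.72% and 1.16%, the 1 member being ITGB6. GGGCGG, an SP factor core, stood in 50% and 42.6%. A match in such a window is a description of letters and shows no binding.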

How the data were processed

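The authors deposited 1 table of estimated counts per gene, partly fractional, for 6 libraries. The tool kallisto 0.48.0 and the genome build hg38 are named per the submitters' processing notes. The summing of transcripts into genes is not given in the sources used here. Counts were rounded, filtered with filterByExpr (minimum count 10, minimum total 15), scaled by TMM and fitted over all 6 libraries in R 4.3.3 with edgeR 4.0.16 (quasi-likelihood, robust, genotype only, two-sided, Benjamini-Hochberg over 28485 genes). Of the rows, 20357 carry no gene name and were kept in the fit. Lengths are the longest coding transcripts and positions the genes of GENCODE 29 (GRCh38). The fitting steps were tested on simulated counts. Chi-square per degree of freedom between replicates was at least 11.1, so no 2 libraries agreed within sampling noise. Precision thus rests on replicate spread. Members, lists, pairs and the rule for named genes (all members, and up to 4 of the largest called changes of at least 5 CPM with no overlap per other list, plus up to 3 of the most abundant genes in marker and identity lists) were chosen with earlier results of these data known. Alternatives used DESeq2 1.42.0, limma-voom 3.58.1, other scalings and filters, unrounded counts, a replicate term, subtraction of a kept share and leaving out each library.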

Additional observations from a re-analysis of the deposited data

How the results depend on the processing

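Over 16 alternative settings, 35 of the 43 genes kept their direction and call wherever they were tested and 8 did not. The filter of 1 CPM in 3 libraries left 8 of the 43 untested (ITGA8, ITGAL, ITGAM, ITGAX, ITGB6, ITGB7, PARVB and FERMT1). With total counts only, values reversed for ITGA7 (-0.18), ITGAE (-0.41), PARVB (-0.07) and TNS1 (-0.08). ITGAE, at 0.01 in the main fit, was also below 0 with upper quartile factors (-0.19), with no filter on low counts (-0.02) and with a filter of 1 CPM in 3 libraries (-0.03). Fallen genes numbered 12 with total counts only and 11 with upper quartile factors, of which 8 and 7 were alpha chains in place of 3. Over all 28485 genes tested, 14949 and 12780 fell in these settings, in place of 10687. With the filter of 1 CPM in 3 libraries 1 activator fell, FERMT1 being untested. Pairs present in parental libraries numbered 20 at 0.1 CPM, 6 at 5 CPM, and 6 at 1 CPM per kilobase with either the longest coding transcript or the exon union, the latter chosen after seeing the data. Subtraction of the kept share moved the ratio differences to 7.48 for ratio PARVA/PARVB, -5.59 for ratio LIMS1/LIMS2, -10.93 for ratio TNS1/TNS3 and 2.99 for ratio ITGB3/ITGB5. The construction of that setting, a lower small level, gives these shifts, and the cause of the others was not tested. Leaving out 1 library gave 30 to 31 risen and 7 to 8 fallen genes, 3 to 4 fallen alpha chains, 6 to 7 risen beta chains, 11 to 12 parental and 14 knockout pairs. Replicate numbers did not pair the libraries: same-numbered libraries had correlations of deviations of -0.019, -0.02 and -0.005. With a replicate block 31 genes rose and 8 fell, the added gene being ITGA8 (-1.96, edgeR adjusted p = 0.00649). Genes under 0.5 CPM throughout (ITGA8, ITGAL, ITGAM, ITGAX, ITGB6, ITGB7, PARVB and FERMT1) are limited by depth.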

Other observations

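Regulators of integrin activity and traffic formed a list of their own. Of 30 tested 19 rose, 6 fell and 5 missed the threshold, and their median log2 change was 0.35 against -0.06 for all genes tested, of which 36.3% rose and 37.5% fell. The largest called changes of at least 5 CPM were rises of the tetraspanins CD82 and CD9, which bind integrins laterally. CD82 measured 18.2, 16.6 and 17.1 CPM in parental RNA against 784, 782 and 729 CPM in knockout RNA (5.47, SE 0.061). CD9 went from 1.30, 1.33 and 1.17 to 37.5, 37.9 and 35.7 CPM (4.87, SE 0.068). KANK1, which binds talin at the rim of adhesions, rose from 2.16 ± 0.109 to 60.1 ± 2.29 CPM (4.8), and DAB2, an endocytic adaptor for beta tails, from 13.0 ± 0.106 to 161 ± 7.49 CPM (3.62; SD, n = 3). Genes were named from this list only where the genotypes did not overlap, so the separation of these 4 is not a result.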
